A study of Homo sapiens with 9 samples.

Results

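The genes described here are H19, IGF2, MEG3, PEG3, PEG10, NNAT, DLK1, NDN, MEST and SNRPN, 10 human genes known to be imprinted. They were chosen by name, with earlier results of these data known. Of the 10, 9 were found among the 34961 genes of the deposited table, and PEG3 was not analysed here. A filter on low counts, which kept 20156 genes for testing, passed 7 of them: SNRPN, MEST, NDN, PEG10, DLK1, IGF2 and MEG3. H19 and NNAT did not pass it and are described by their counts. The data are totals over both parental copies of each gene, so nothing here bears on which copy was read.

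RNA was sequenced from WA09 (H9), an established line of human embryonic stem cells, sampled while it was turned into serotonin neurons. All 9 libraries came from cells with an EGFP reporter knocked in at TPH2, the gene for the brain enzyme that starts serotonin synthesis, and the labels give no line without it. Day0 is human embryonic stem cells, Day21 is neural progenitors and Day42 is TPH2-positive serotonin neurons, with 3 libraries each. The labels give induced serotonin neuron differentiation as the treatment of all 3 groups, Day0 included. Libraries are numbered as biological replicates within a day, with no word on separate differentiations or clones. The spread that the p-values rest on is thus that of these libraries, and part or all of it may be technical. The way the Day42 cells were selected was not given in the sources used here. In bulk RNA, fewer cells of a type and less RNA per cell cannot be told apart.

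Imprinted genes are read mainly from the copy inherited from one parent, because DNA methylation marks set in the egg or sperm at control regions are carried through cell division after fertilization. H19 and MEG3 are long noncoding RNAs read from the maternal copy, and the other members are protein-coding genes read from the paternal copy. Many of them act in growth of the embryo and placenta or in the brain, and the imprinted domain that holds SNRPN and NDN is the one affected in Prader-Willi syndrome.

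RefSeq promoter windows on GRCh38.p14 were matched for 5 of the 10 members, H19, MEG3, MEST, NDN and SNRPN, with 14 windows in all, since several of these genes have more than 1 annotated start. DLK1, IGF2, NNAT, PEG10 and PEG3 had no entry. Each window runs from 250 to 71 bases before the start, which is 180 bases. A single window per gene is printed 5′ to 3′ on the gene's strand, with every CG dinucleotide, the substrate of DNA methylation, in capitals, to show how far the windows differ in the sites a methylation mark could use. No methylation was measured in these libraries. The NDN window lies at chr15:23687376-23687555 (minus strand), just upstream of the gene:
NDN: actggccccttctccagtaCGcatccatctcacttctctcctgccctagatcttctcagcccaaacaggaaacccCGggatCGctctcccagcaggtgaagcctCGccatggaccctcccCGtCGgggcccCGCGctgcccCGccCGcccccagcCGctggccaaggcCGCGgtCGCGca
The SNRPN window lies at chr15:24954737-24954916 (plus strand), inside the span that the table gives to SNRPN:
SNRPN: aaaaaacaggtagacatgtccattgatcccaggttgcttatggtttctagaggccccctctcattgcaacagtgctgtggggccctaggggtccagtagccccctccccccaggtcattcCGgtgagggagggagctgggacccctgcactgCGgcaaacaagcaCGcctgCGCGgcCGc
The MEST window lies at chr7:130491808-130491987 (plus strand), also inside its gene's span:
MEST: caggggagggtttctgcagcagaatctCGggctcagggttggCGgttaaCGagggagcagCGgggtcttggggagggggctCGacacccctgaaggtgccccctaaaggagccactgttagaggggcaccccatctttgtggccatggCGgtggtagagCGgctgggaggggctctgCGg
The MEG3 window lies at chr14:100825858-100826037 (plus strand), inside its gene's span:
MEG3: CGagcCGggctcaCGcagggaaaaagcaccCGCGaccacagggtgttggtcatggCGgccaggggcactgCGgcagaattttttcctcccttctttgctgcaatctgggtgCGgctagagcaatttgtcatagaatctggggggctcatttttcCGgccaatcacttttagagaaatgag
The H19 window lies at chr11:2001337-2001516 (minus strand) and overlaps the upstream end of its gene's span:
H19: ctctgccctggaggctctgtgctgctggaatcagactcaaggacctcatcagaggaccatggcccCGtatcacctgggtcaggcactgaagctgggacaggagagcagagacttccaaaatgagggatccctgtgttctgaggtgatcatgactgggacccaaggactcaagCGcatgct
The NDN window held 15 CG dinucleotides, more than 73.1% of the 35116 RefSeq windows of the same length, whose median was 7. The H19 window held 2, more than 21.8% of them. MEG3 held 9, MEST 8 and SNRPN 6 in the printed windows. A MEST window that is not printed, at chr7:130486097-130486276, held 15, as many as the NDN window. The letters TGCCGC, the hexamer bound by the imprint-maintenance protein ZFP57 when methylated, were searched on both strands. They were found in 6 of the 14 windows of these genes, and in 8.96% of all windows. Among the 6 were the printed SNRPN and MEG3 windows and the unprinted MEST window with 15 CG. The windows of a gene overlap or neighbour each other and are not separate observations.

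Total counts were 58526466 to 66034630 on Day0, 63031962 to 66515692 on Day21 and 59429495 to 69658328 on Day42. Counts pile up at multiples of 4, so the limit below which a count is not told from 0 was set at 12 counts per library, which is a mean of 0.227 CPM (a count relative to the scaled size of its library) in Day0, 0.203 in Day21 and 0.146 in Day42 libraries. The third Day42 library stood apart, with 10797 genes detected against 16077 and 17101 in the other Day42 libraries. Of 5683 genes with at least 1000 counts in both of those, 694 (12.2%) had a count of 0 in the third, and the same share was at most 0.337% in any other library. Counts of members apart, and of members and listed genes called, are therefore also given without it. Summed pluripotency markers were at 1626 to 2482 CPM in Day0, 96.5 to 128 in Day21 and 0.166 to 5.62 in Day42 libraries. Summed neuronal markers were at 145 to 159 CPM in Day0, 837 to 1216 in Day21 and 7319 to 8486 in Day42 libraries. Serotonin neuron markers summed to 1246 to 1483 CPM on Day42 and to at most 8.55 before, with SLC6A4, the serotonin transporter, at 0 in all 3 Day42 libraries.

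Levels of a gene across days are given as CPM scaled by the trimmed mean of M values (TMM), and levels between genes as the deposited FPKM, fragments scaled by gene length and library size. By mean FPKM, SNRPN was the highest member on every day, with 810, 165 and 427 in the order of the days, and its libraries did not overlap those of the next gene. On Day0 it was followed by MEST at 41.0, NDN at 14.6, PEG10 at 4.62, DLK1 at 0.4998 and IGF2 at 0.0944 FPKM, and each of these was apart from its neighbour in all libraries. NNAT, H19 and MEG3 were at the foot of the order, at 0.0368, 0.0367 and 0.00178 FPKM, and their libraries overlapped or lay under the counting limit. On Day21 the order was SNRPN, NDN at 56.2, MEST at 40.0, PEG10 at 18.9, DLK1 at 9.36 and IGF2 at 1.25 FPKM. Neighbours from NDN to DLK1 overlapped across libraries, and IGF2 was below all of them. Within each Day21 library the order of these genes was the same. On Day42 NDN at 71.8 and MEST at 52.4 FPKM overlapped, as did DLK1 at 11.8 and PEG10 at 10.3, with IGF2 lower at 1.45. The overlap of both pairs across libraries came from the third Day42 library, in which DLK1 was at 0 and below IGF2 at 2.53 FPKM. Within each Day42 library, the third included, NDN was above MEST. In the other Day42 libraries DLK1 was at 18.9 and 16.5 FPKM, a mean of 17.7, and PEG10 at 11.3 and 7.95, and each neighbour from SNRPN to MEG3 in the order was apart. The FPKM of MEG3 is low partly by construction, because its gene model is longer than that of any other member. Its annotated exons cover 23224 bases. Its FPKM implies about 30183 if the library total was the sum of counts, and lengths implied in this way exceeded the annotated ones for every member.

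**Figure D1:**
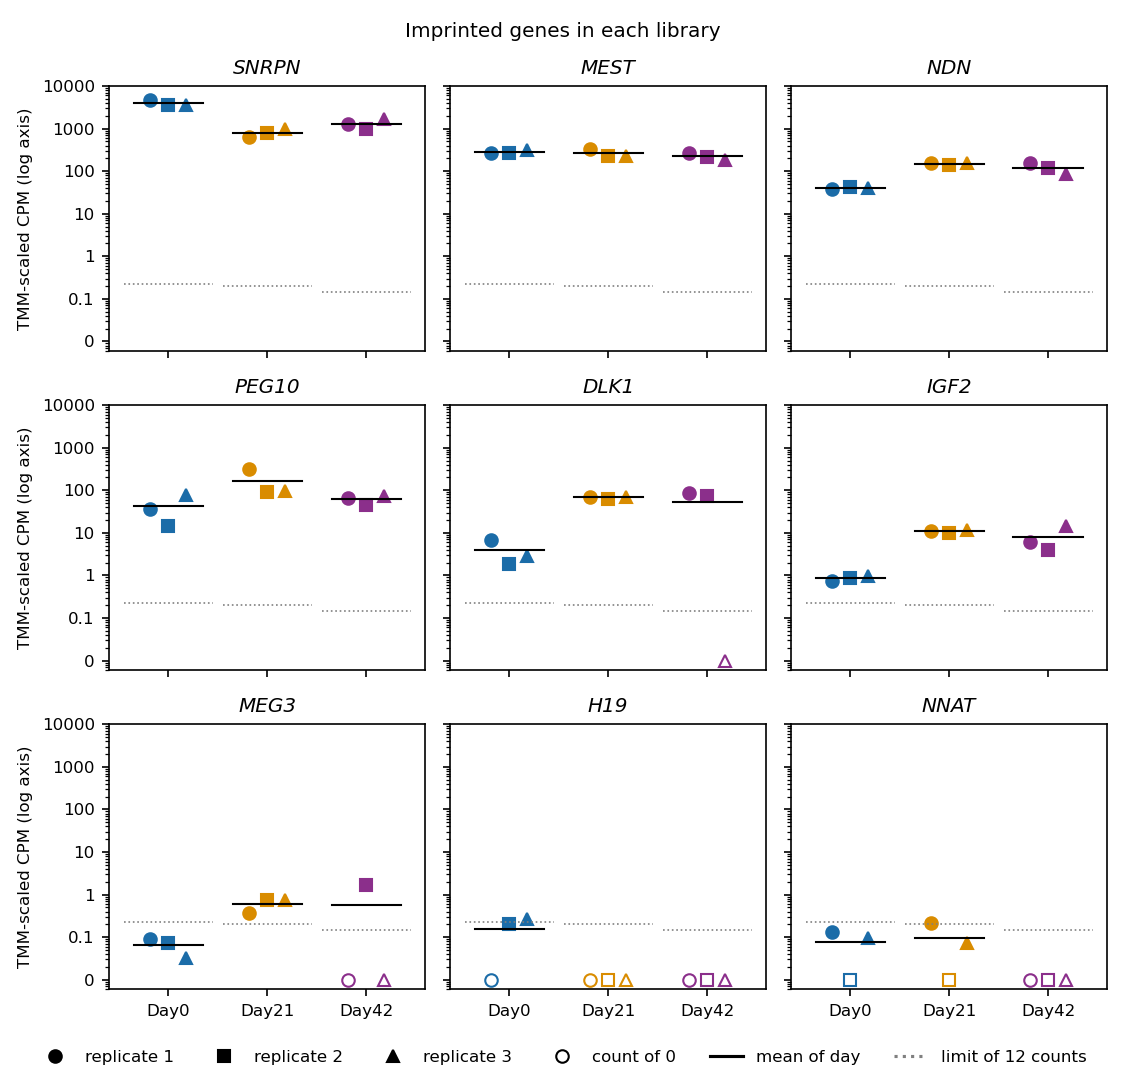
TMM-scaled CPM (log axis) of the 9 imprinted genes found in the table, by library and day, with replicates as symbols, the mean of each day as a bar and the 12-count limit as a dotted line. Open symbols at the foot are counts of 0; SNRPN is the highest gene throughout, IGF2, NDN and DLK1 sit higher on Day21 than on Day0, and DLK1 is at 0 in the third Day42 library.

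Each comparison of the 3 days used edgeR's quasi-likelihood test on the counts of all 9 libraries with Benjamini-Hochberg adjustment over all tested genes. A gene was called when its adjusted p was under 0.05 and its log2 fold change was at least 1 in size. From Day0 to Day21, IGF2 and NDN were called higher and SNRPN lower, 3 of the 7 tested members, where 2.5% of all tested genes were called (1.32% higher and 1.18% lower). In the step to Day42, 0 of the 7 members were called against Day21, where 26.3% of all tested genes were (6.52% higher and 19.7% lower). In that step 1 of the 7 had an unadjusted p under 0.05, DESeq2 and voom called 0 members, and 3 of the other fits called SNRPN higher. Of the 20156 tested genes, 7447 had an unadjusted p under 0.05, and DESeq2 called 35.8% and voom 22.5%. The 3 fits that called SNRPN called 26.8%, 36.4% and 38.2% of the genes tested in them. From Day0 to Day42, IGF2 and NDN were again called higher and SNRPN lower, 3 of 7, where 32.2% of all tested genes were called (8.82% higher and 23.4% lower). The last comparison shares its libraries with the other 2 and is not a separate observation. With only the 2 days of a comparison fitted, 5, 0 and 2 members were called, where 25.6%, 22% and 25.4% of the genes tested in those fits were. Without the third Day42 library, 4, 0 and 4 members were called, where 13.3%, 33.3% and 40.7% of genes were. The median log2 fold change over the 7 members was 1.95, -0.29 and 1.60 in the 3 comparisons, against 0.03, -0.54 and -0.57 over all tested genes.

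In TMM-scaled CPM the libraries of Day0 and Day21 did not overlap for 6 of the 7 tested members, all but MEST. Among all tested genes 46.9% did not overlap. For Day21 and Day42 this held for 2 of 7, SNRPN and PEG10, with 45.8% among all tested genes. PEG10 overlapped in FPKM in both of these comparisons. For Day0 and Day42 it held for 3 of 7, SNRPN, NDN and IGF2, with 45.5% among all tested genes. Without the third Day42 library, Day21 and Day42 were apart for 4 of 7, DLK1 and SNRPN higher and IGF2 and PEG10 lower, with 60.4% among all tested genes. Without it Day0 and Day42 were apart for 4 of 7, now with DLK1, with 60.2% among all tested genes. The count for Day0 and Day21 lies above the share among all genes, and the counts with Day42 do not, with or without that library.

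**Figure D2:**
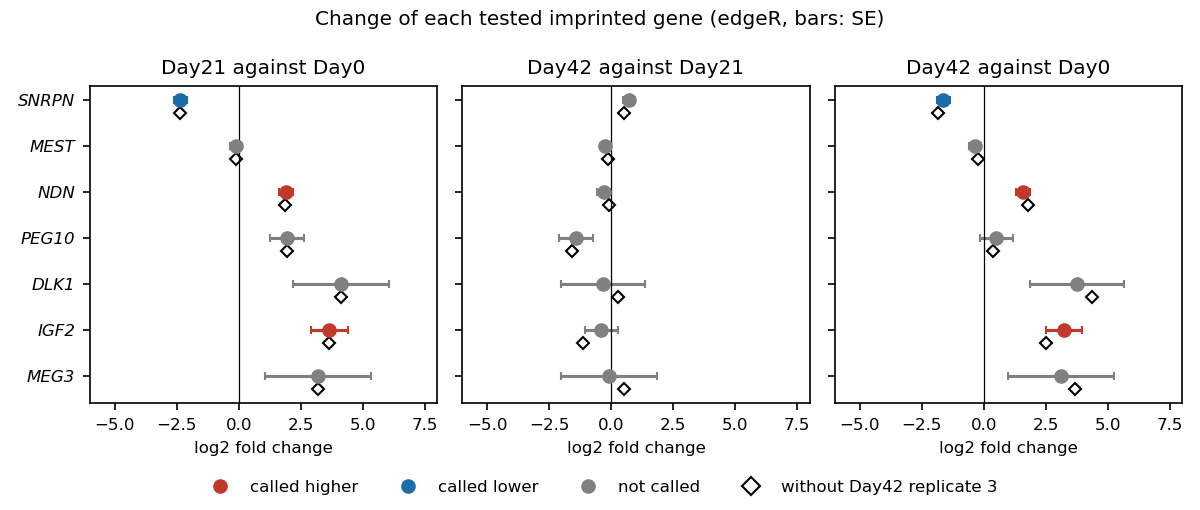
Log2 fold change of the 7 tested imprinted genes in each comparison by edgeR, with the standard error as a bar, colour for called genes and an open diamond for the value without the third Day42 library. SNRPN lies at -2.35 and NDN at 1.89 with short bars from Day0 to Day21, while DLK1 and MEG3 have wide bars, and no gene is called from Day21 to Day42.

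IGF2, insulin-like growth factor 2, is a secreted growth factor that signals through the IGF1 and insulin receptors. In the table it is ENSG00000167244 at chr11:2129112-2141238 (GRCh38, minus strand). On its own strand it overlaps the readthrough gene INS-IGF2, MIR483, AC132217.1 and another model named IGF2, and on the other strand IGF2-AS. Its level was 0.739, 0.871 and 0.979 CPM in the Day0 libraries, which rest on 33, 48 and 60 counts. On Day21 it was 11.1, 10.1 and 11.5 CPM. On Day42 it was 6.01, 3.89 and 14.7 CPM. All Day21 and all Day42 libraries lay above all Day0 libraries, and the Day42 libraries spread to both sides of Day21. By edgeR IGF2 rose 12.6-fold from Day0 to Day21 (log2 fold change 3.65 ± 0.74 SE, adjusted p = 0.0447) and was 9.49-fold higher on Day42 than on Day0 (3.25 ± 0.73, adjusted p = 0.0101). Between Day21 and Day42 the change was -0.41 ± 0.67 (adjusted p = 0.740), with the sign turned in 4 of 20 alternatives. The Day21 call was lost in 8 of the 20 alternatives, among them the removal of any 1 Day0 or Day21 library, with adjusted p up to 0.213. The Day42 call was lost in 3, one of them without the first Day0 library, with adjusted p up to 0.0652. Without the third Day42 library, the one with the highest IGF2, the Day42 change from Day0 was 2.51 (adjusted p = 0.00291) and that from Day21 was -1.13 (adjusted p = 0.0834).

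Of the other genes of the IGF system, 18 of 20 listed were tested, and from Day0 to Day21 3 rose and 1, the secreted protein gene STC1, fell, beside 1.32% and 1.18% of all tested genes. IGFBP5, a binding protein that holds IGFs at the cell surface and matrix, was at 0.293 ± 0.285 CPM (SD, n = 3) on Day0 and 86.4 ± 15.4 on Day21 (log2 fold change 8.20 ± 1.21 SE, edgeR adjusted p = 0.0125; lost in 5 of 20 alternatives, all of them the removal of 1 Day0 or Day21 library). IGFBP3, the main carrier of IGFs in blood, went from 8.06 ± 2.90 to 135 ± 29.4 CPM (4.07 ± 0.39, adjusted p = 0.00199). IGFBP2, a binding protein abundant in the embryonic brain, rose from 175 ± 57.4 to 965 ± 197 CPM (2.46 ± 0.33, adjusted p = 0.00808; lost under 2 alternatives, one of them without the first Day0 library). In the second step 3 of the 18 rose and 4 fell, beside 6.52% and 19.7% of all tested genes, and 5 were higher and 2 lower on Day42 than on Day0, beside 8.82% and 23.4%. When the third Day42 library was left out, those higher and lower were 4 and 2, 4 and 5, and 6 and 4 in the 3 comparisons, in a fit that called 13.3%, 33.3% and 40.7% of all genes. From Day21 to Day42, IGFBP2 fell to 115 ± 30.6 CPM (-3.06 ± 0.33, edgeR adjusted p = 0.000839). IGFBP5 fell to 7.02 ± 5.13 (-3.62 ± 0.98, adjusted p = 0.0266). IGFBP3, at 100 ± 23.5, was not called in that step. STC1 was at 73.3 ± 14.3, 5.69 ± 0.317 and 3106 ± 191 CPM in the order of the days, a rise of 9.09 ± 0.24 in the last step (adjusted p = 2.32e-06). The receptor IGF1R did not pass the test in any comparison, with means of 9.79, 10.5 and 3.77 CPM on Day0, Day21 and Day42. IGF2R, which clears IGF2 and does not relay its growth signal, was at 5.82, 10.6 and 4.58 CPM and did not pass it either. INSR, the insulin receptor, was at 30.5 ± 23.8, 18.4 ± 7.13 and 99.9 ± 40.3 CPM (SD, n = 3). It was called higher on Day42 than on Day21 (log2 fold change 2.44 ± 0.65 SE, edgeR adjusted p = 0.0244), but not in the comparisons with Day0.

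H19, the noncoding RNA next to IGF2, is ENSG00000130600 at chr11:1995176-2001470 (minus strand) and hosts MIR675. It had 0, 11 and 16 counts in the 3 Day0 libraries and 0 counts in all 6 libraries of Day21 and Day42. Only the third Day0 library exceeded the limit of 12 counts, so a level on Day21 and Day42 of up to 0.203 and 0.146 CPM could not be told from 0. H19 was therefore at or under the counting limit in 8 of 9 libraries, while IGF2 was above it in all 9.

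DLK1 is a membrane-bound, EGF-repeat protein related to the Notch ligands that restrains differentiation of several cell types. It is ENSG00000185559 at chr14:100725705-100738224 (plus strand) and overlaps no other gene model. Its level was 6.99, 1.91 and 2.90 CPM in the Day0 libraries and 70.4, 63.4 and 70.4 CPM in the Day21 libraries. On Day42 it was 88.6 and 73.5 CPM in the first and second library and 0 in the third, against 6912 and 6231 counts in the others. Day21 libraries lay above all Day0 libraries, while the third Day42 library was below every Day0 library. The log2 fold change from Day0 to Day21 was 4.11 ± 1.93 (SE, edgeR adjusted p = 0.339), which did not pass the test. Without the third Day42 library, in a fit where 13.3% of tested genes were called in that step, it was 4.11 ± 0.49 (adjusted p = 0.00215) and passed. From Day0 to Day42 the value was 3.78 (adjusted p = 0.172) with all libraries and 4.37 (adjusted p = 0.000539) without that library, where 40.7% of tested genes were called. Between Day21 and Day42 it was -0.33 (adjusted p = 0.933) with all libraries and 0.26 without the third.

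MEG3, a noncoding RNA from the same imprinted cluster on chromosome 14, is ENSG00000214548 at chr14:100779410-100861031 (plus strand) and shares its span with MIR770 and MIR2392. It had 4, 4 and 2 counts on Day0, all under the limit of 12. On Day21 it had 25, 40 and 41 counts, or 0.363, 0.731 and 0.741 CPM. On Day42 it had 0, 146 and 0 counts, so its Day42 mean of 0.574 CPM rests on the second library alone. All Day21 libraries lay above all Day0 libraries, and the Day42 libraries lay on both sides of both other days. MEG3 did not pass edgeR's test in any comparison with all libraries (adjusted p = 0.570, 0.998 and 0.318 for Day21 against Day0, Day42 against Day21 and Day42 against Day0). It passed from Day0 to Day21 when only those days were fitted (log2 fold change 3.20, adjusted p = 0.0225) and with voom quality weights (2.99, adjusted p = 0.00921). Because Day0 lies under the counting limit, these values do not measure the size of the change.

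Other transcripts of the chromosome 14 cluster had low counts before Day42 and also differed between the Day42 libraries. MEG8, a noncoding RNA downstream of MEG3, had 0, 1 and 0 counts in the Day0 libraries. It had 24, 6 and 5 counts in those of Day21 and 1683, 821 and 0 in those of Day42. The comparison of Day42 with Day0 called it higher (edgeR adjusted p = 0.0243), but not in 4 of the 15 alternatives that gave a value, including the removal of any 1 Day0 library. RTL1, a retrotransposon-derived protein gene of the cluster chosen after its values were seen, had 579, 537 and 0 counts on Day42 and at most 16 in any earlier library (adjusted p = 0.0562 from Day0 to Day42). DLK1, MEG3, MEG8 and RTL1 were thus all at 0 in the third Day42 library, in which 12.2% of genes well counted in the other Day42 libraries were at 0 as well.

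Summed markers of mesenchyme and muscle, 11 of 13 listed genes in the table, had a higher sum on Day21, at 587 to 636 CPM against 196 to 295 on Day0 and 124 to 157 on Day42. The genes of that list went both ways from Day0 to Day21, with 2 called higher and 2 lower. LUM, a matrix proteoglycan, was the highest of them on Day21, while the muscle genes TNNT2 and DES were at 0 in all Day21 libraries. Summed markers of liver and yolk sac endoderm, in which IGF2 and H19 are abundant, were at 20.9 to 52.8, 32.5 to 39.0 and 38.6 to 72.4 CPM in the order of the days, with AFP and APOA2 at 0 on Day42. Trophoblast markers summed to 15.0 to 22.9, 0.777 to 1.35 and 99.6 to 307 CPM, and the highest of them on Day42 was GATA3, which is also a serotonin neuron gene. The part of other cell types in the levels of IGF2, DLK1 and MEG3 was not tested.

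SNRPN encodes SmN, a core protein of the spliceosome that takes the place of its near-identical relative SmB, from SNRPB, mainly in brain. It is ENSG00000128739 at chr15:24823637-24978723 (plus strand) and shares its span and strand with SNURF and part of the long host transcript SNHG14. Its level was 4755, 3639 and 3655 CPM in the Day0 libraries. On Day21 it was 626, 769.8 and 969.6 CPM. On Day42 it was 1259, 980.2 and 1676 CPM. No Day0 library overlapped a later one, and the lowest Day42 library lay just above the highest Day21 library. SNRPN fell 5.09-fold from Day0 to Day21 (log2 fold change -2.35 ± 0.26 SE, edgeR adjusted p = 0.00312), which was called in all 20 alternatives with values from -2.52 to -2.21. Between Day21 and Day42 the change was 0.73 ± 0.25 (adjusted p = 0.0595), which did not pass. That change passed at up to 1.36 under library totals and under both fits of FPKM, which leave out the TMM scaling. On Day42 SNRPN was 3.08-fold lower than on Day0 (-1.62 ± 0.25, adjusted p = 0.00229), and both fits of FPKM gave -0.94 (adjusted p = 0.00579 and 0.00580), below the fold minimum.

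SNRPB was at 903 ± 143 CPM (SD, n = 3) on Day0 and 912 ± 111 on Day21, a log2 fold change of 0.01 ± 0.23 (SE) that did not pass the test. It fell to 138 ± 35.7 CPM on Day42 (-2.73 ± 0.25 from Day21, edgeR adjusted p = 0.000437). SNRPN as a share of the summed FPKM of SNRPN and SNRPB was 63.8%, 64.8% and 58.9% in the Day0 libraries, 23.0%, 22.5% and 27.6% in those of Day21, and 73.7%, 71.5% and 86.4% in those of Day42. The shares of the 3 days did not overlap, with means of 62.5% ± 3.13, 24.4% ± 2.85 and 77.2% ± 8.05 (SD, n = 3), so the lowest share was on Day21 and the highest on Day42. The share is a ratio within a library, which the scaling between libraries does not alter, and it shows unequal change of the pair, not the change of either gene. The coding sequences of the pair are alike and the counting could divide shared reads between them. Of 11 other genes for Sm core and snRNP-specific proteins of the spliceosome, SNRPB among them, 0 were called by edgeR from Day0 to Day21. DESeq2, voom and limma on FPKM also called 0 of them, and 2 had an unadjusted p under 0.05. Of the genes each fit tested, edgeR called 2.5%, DESeq2 14.6%, voom 34.4% and limma on FPKM 12.4%. By edgeR 3398 of 20156 genes had an unadjusted p under 0.05. On Day42 10 of the 11 were called lower than on Day21 (all 11 without the third Day42 library) and all 11 lower than on Day0, where 19.7% and 23.4% of all tested genes were called lower.

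SNHG14, the noncoding transcript that extends from the SNRPN region and hosts small nucleolar RNAs, had its lowest libraries on Day21, as SNRPN did. It was at 184, 208 and 209.6 CPM in the Day0 libraries, 34.9, 25.9 and 16.1 in the Day21 libraries, and 73.3, 157 and 111 in the Day42 libraries, with no overlap between the days. It fell from Day0 to Day21 (log2 fold change -2.97 ± 0.39 SE, edgeR adjusted p = 0.00805; lost in 3 of 20 alternatives, one of them without the second Day21 library) and rose from Day21 to Day42 (2.15 ± 0.38, adjusted p = 0.00456; lost in 1). Its value from Day0 to Day42 was -0.82 (adjusted p = 0.129). SNURF, the upstream reading frame of the shared transcript, was at 23.1 ± 9.15, 14.0 ± 5.84 and 15.9 ± 17.5 CPM and did not pass the test in any comparison. SNURF, SNHG14 and SNRPN overlap on 1 strand, so reads from the shared stretch could be counted for any of them.

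**Figure D3:**
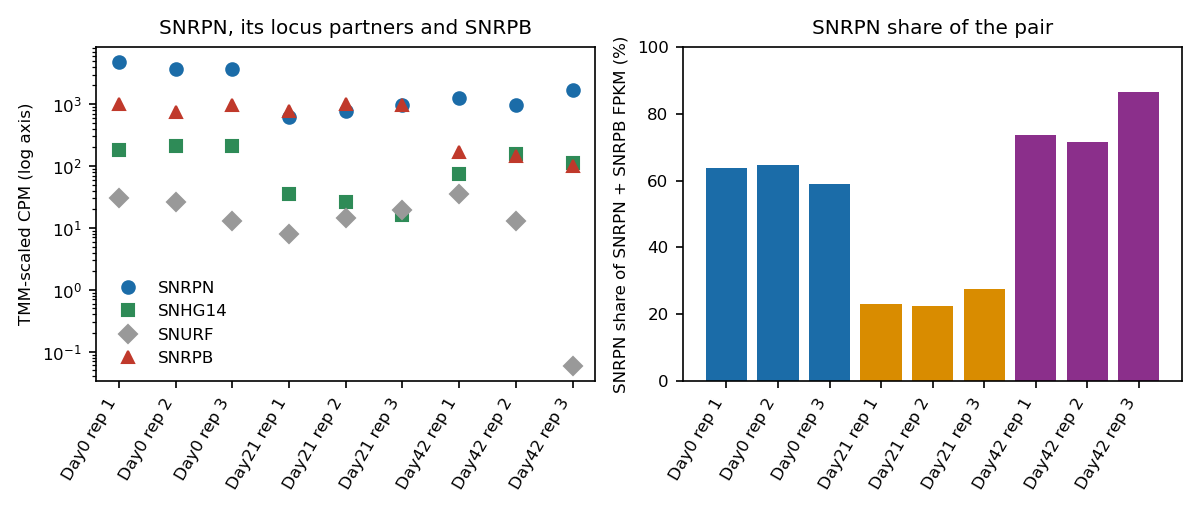
Left, TMM-scaled CPM (log axis) of SNRPN, its locus partners SNHG14 and SNURF, and the paralog SNRPB in each of the 9 libraries; right, SNRPN as a percent of the summed FPKM of SNRPN and SNRPB in each library. SNRPN and SNHG14 are lowest on Day21 and SNRPB is lowest on Day42, and the SNRPN share is 22.5% to 27.6% on Day21 against 58.9% to 64.8% on Day0 and 71.5% to 86.4% on Day42.

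NDN, necdin, is a protein of the MAGE family that restrains the cell cycle and is abundant in neurons after division. It is ENSG00000182636 at chr15:23685400-23687305 (minus strand) and overlaps no other gene model. Its window was the richest in CG of those printed, level with a MEST window that is not printed. Its level was 38.1, 41.99 and 39.9 CPM on Day0. On Day21 it was 155, 138 and 153 CPM, and on Day42 it was 158, 121 and 84.2 CPM. All Day21 and Day42 libraries lay above all Day0 libraries, and Day42 overlapped Day21 with the third library lowest. NDN rose 3.71-fold from Day0 to Day21 (log2 fold change 1.89 ± 0.28 SE, edgeR adjusted p = 0.0125) and was 3.03-fold higher on Day42 than on Day0 (1.60 ± 0.28, adjusted p = 0.00341), the latter kept in all 20 alternatives. The Day21 call was lost in 7 of 20, among them the removal of any 1 Day0 or Day21 library, with adjusted p up to 0.0921 and values from 1.84 to 2.00. Between Day21 and Day42 the change was -0.29 ± 0.27 (adjusted p = 0.512), and it was 0.23 to 0.31 under library totals and the FPKM fits. SNRPN and NDN, both on the paternal copy of 1 domain of chromosome 15, thus changed in opposite directions from Day0 to Day21 and from Day0 to Day42.

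Among other genes of that domain, MKRN3 was called higher on Day42 than on Day0, as NDN was, and MAGEL2 was not called. MAGEL2, a MAGE family gene near NDN chosen after its values were seen, had 29, 25 and 75 counts in the Day0, 138, 48 and 67 in the Day21, and 1131, 742 and 0 in the Day42 libraries, and did not pass the test in any comparison. MKRN3, a ring-finger protein gene known for its part in the timing of puberty, had 0 counts in all Day0 libraries, 355, 219 and 178 in those of Day21, and 119, 59 and 4367 in those of Day42. The rise from Day0 to Day42 was called, at least 79.2-fold against the limit of 12 counts per library (edgeR adjusted p = 0.0118; lost when only those days were fitted), a size that rests on the third Day42 library. Without that library the call stood (adjusted p = 0.00177), from the 119 and 59 counts of the others. Of the MAGE type II family, 10 genes with NDN among them were tested, and 4 rose from Day0 to Day21 and 6 were higher on Day42 than on Day0. Among those 6 were MAGED4, at 13.1, 47.9 and 106 CPM in the order of the days, and MAGED4B, at 14.7, 55.1 and 99.4 CPM. Whether the counting divided shared reads between MAGED4 and MAGED4B was not tested. Between Day21 and Day42, 0 of the 10 were called by edgeR, with 2 at an unadjusted p under 0.05, 0 by DESeq2 or voom and 4 by limma on FPKM. Of the genes each fit tested, edgeR called 26.3% in that step, DESeq2 35.8%, voom 22.5% and limma on FPKM 36.4%. By edgeR 7447 of 20156 genes had an unadjusted p under 0.05. Of all tested genes, 1.32% rose in the first step and 8.82% were higher on Day42 than on Day0. Without the third Day42 library, 6 of the family rose in the first step, 2 were higher and 1 lower in the second, and 8 were higher on Day42 than on Day0, in a fit that called 13.3%, 33.3% and 40.7% of all genes. MAGED2 went from 237 ± 37.8 to 874 ± 77.9 CPM by Day21 (log2 fold change 1.88 ± 0.18 SE, adjusted p = 0.00199), and MAGED1 from 62.7 ± 21.1 to 246 ± 85.0 (1.97 ± 0.32, adjusted p = 0.0193; lost in 6 of 20 alternatives, 5 of them the removal of 1 Day0 or Day21 library).

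PEG10 is derived from an ancient retrotransposon, keeps its gag and pol reading frames and is needed in the placenta. It is ENSG00000242265 at chr7:94656325-94669695 (plus strand) and overlaps SGCE, also paternally expressed, on the other strand. Its level was 36.1, 14.7 and 78.6 CPM on Day0. On Day21 it was 311, 90.7 and 97.8 CPM, and on Day42 it was 67.7, 45.1 and 71.8 CPM. Every Day21 library lay above every Day0 and Day42 library, and Day0 and Day42 overlapped. PEG10 did not pass edgeR's test in any comparison: the log2 fold change was 1.95 ± 0.69 (SE, adjusted p = 0.184) from Day0 to Day21, -1.44 ± 0.68 (adjusted p = 0.167) from Day21 to Day42 and 0.51 ± 0.67 (adjusted p = 0.629) from Day0 to Day42. Without the first Day21 library, which held its highest level, the first of these was 1.10 (adjusted p = 0.608) and the second -0.55 (adjusted p = 0.674). With 1 Day0 library left out, the last ranged from 0.0954 (without the second) to 1.27 (without the third). Only the fit with voom quality weights, in which 6 of the 7 members passed, called it higher on Day21 (1.66, adjusted p = 0.0170). That fit called 34.4% of all tested genes in the same step. SGCE, a sarcoglycan gene, was at 27.8 ± 6.09, 38.4 ± 6.16 and 51.0 ± 27.6 CPM and did not pass the test. Its counts cannot be told apart from antisense reads, with the strand used in counting not given in the sources used here. Of the RTL and PNMA genes, which also derive from retrotransposons, 17 of 21 listed were tested, and 1 rose from Day0 to Day21, 2 rose and 2 fell in the next step, and 4 were higher and 2 lower on Day42 than on Day0. The shares of all tested genes, higher and lower, were 1.32% and 1.18%, 6.52% and 19.7%, and 8.82% and 23.4%. The RTL and PNMA counts without the third Day42 library were 2 and 0, 5 and 3, and 6 and 1, in a fit that called 13.3%, 33.3% and 40.7% of all genes.

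MEST, also called PEG1, encodes a protein of the alpha/beta hydrolase fold and is widely expressed in embryonic mesoderm. It is ENSG00000106484 at chr7:130486171-130506292 (plus strand), hosts MIR335 and overlaps MESTIT1 and COPG2 on the other strand. Its level was 264, 271 and 306 CPM in the Day0 libraries, 329.7, 227 and 225 in the Day21 libraries, and 269.7, 212 and 184 in the Day42 libraries. The libraries of the 3 days overlapped in every comparison. The log2 fold changes were -0.11 ± 0.23 (SE, edgeR adjusted p = 0.968), -0.23 ± 0.23 (adjusted p = 0.548) and -0.34 ± 0.23 (adjusted p = 0.324) in the order of the comparisons above, and over the alternatives they lay between -0.33 and 0.02, -0.35 and 0.42, and -0.46 and 0.35. MESTIT1, the noncoding gene within MEST, had 302, 124 and 284 counts in the Day0 libraries, 5, 15 and 0 in those of Day21, and 0 in all Day42 libraries. It was called lower on Day42 than on Day0, by at least 31.2-fold against the limit of 12 counts (adjusted p = 0.0106; lost in 2 of the 18 alternatives that gave a value).

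NNAT, neuronatin, is a small membrane protein of the endoplasmic reticulum, best known from the developing brain and the endocrine pancreas. It is ENSG00000053438 at chr20:37521206-37523690 (plus strand) and lies within BLCAP, which is on the other strand. It had 6, 0 and 6 counts in the Day0 libraries, 15, 0 and 4 in those of Day21, and 0 in all 3 Day42 libraries. The first Day21 library alone exceeded the limit of 12 counts, and NNAT was thus not detectable above 0.146 CPM on Day42, the day with the most neuronal marker RNA. BLCAP, chosen after its values were seen, had means of 45.4 and 61.4 CPM on Day0 and Day21. The Day42 libraries were at 337, 28.8 and 433 CPM, the second of them below every Day0 library. BLCAP was called higher on Day42 than on Day0 (log2 fold change 2.55 ± 0.78 SE, edgeR adjusted p = 0.0361). Its change from Day21 to Day42 was not called (2.12 ± 0.77, adjusted p = 0.0753).

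Imprinted genes outside the 10 were described from 2 further lists. Of 30 other genes listed as paternally expressed, 20 were tested, and from Day0 to Day21 1 rose and 1 fell, from Day21 to Day42 4 rose and 1 fell, and from Day0 to Day42 5 were higher and 3 lower. The shares called among all tested genes were 2.5%, 26.3% and 32.2%. These counts without the third Day42 library were 4 and 2, 8 and 1, and 10 and 3, in a fit that called 13.3%, 33.3% and 40.7% of all genes. Of 20 listed as maternally expressed, 16 were tested. From Day0 to Day21, 0 of them were called by edgeR, with 3 at an unadjusted p under 0.05, 3 called by DESeq2, 4 by voom and 1 by limma on FPKM. Of the genes each fit tested, DESeq2 called 14.6%, voom 34.4% and limma on FPKM 12.4%. By edgeR 3398 of 20156 genes had an unadjusted p under 0.05. On Day42, 4 of the 16 were higher and 3 lower than on Day21, and 5 were higher and 4 lower than on Day0. Without the third Day42 library, 3 were called in the first step, all higher, 5 were higher and 5 lower in the second, and 5 were higher and 4 lower on Day42 than on Day0.

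DIRAS3, a paternally expressed small GTPase that slows growth, was called in all 3 comparisons. It had 6, 0 and 5 counts in the Day0, 143, 103 and 154 in the Day21, and 21824, 15896 and 18875 in the Day42 libraries, which is 2.25 ± 0.475 CPM (SD, n = 3) on Day21 and 230.3 ± 46.4 on Day42. Its rise from Day21 to Day42 was 6.68 ± 0.86 (log2 fold change, SE, edgeR adjusted p = 0.00158) and was kept in all 20 alternatives, while the call from Day0 to Day21 (adjusted p = 0.0213) was lost in 7, 5 of them the removal of 1 Day0 or Day21 library. NAP1L5, a nucleosome assembly protein gene, rose from 2.99 ± 1.04 CPM on Day21 to 31.6 ± 12.8 on Day42 (3.401 ± 1.004, adjusted p = 0.0375; lost in 9 of 20 alternatives, 7 of them the removal of 1 library of any day). GNAS, the stimulatory G protein subunit, whose imprinting depends on promoter and tissue, was chosen after its values were seen. It went from 248 ± 52.1 CPM on Day21 to 1496 ± 148 on Day42 (2.59 ± 0.21, adjusted p = 0.000303), kept in all 20 alternatives. SLC22A18, a maternally expressed transporter gene of chromosome 11, was at 10.9 ± 1.10 CPM on Day21 and at 0 in all Day42 libraries, at least 74.4-fold lower against the limit of 12 counts per library (adjusted p = 0.00132).

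**Figure D4:**
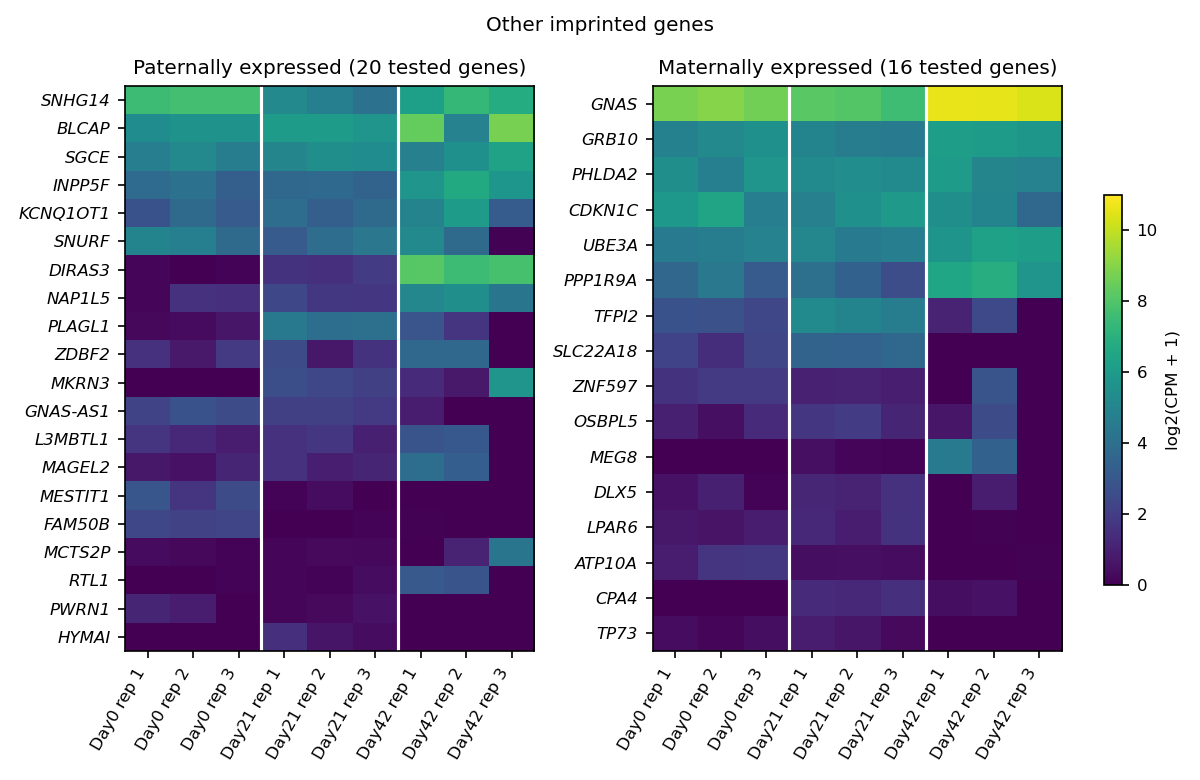
Heatmap of log2(CPM + 1) in each of the 9 libraries for the 20 other paternally expressed (left) and 16 maternally expressed (right) imprinted genes that were tested, ordered by level, with white lines between the days. DIRAS3 and GNAS are brightest on Day42, SNHG14 is darker on Day21 than on the other days, and several genes are dark in the third Day42 library alone.

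Genes that keep or bind methylation marks at imprinted regions were read from a list of 22, of which 18 were tested. In the first step 0 of them were called by edgeR, with 6 at an unadjusted p under 0.05, 5 called by DESeq2, 8 by voom and 3 by limma on FPKM. Of the genes each fit tested, edgeR called 2.5%, DESeq2 14.6%, voom 34.4% and limma on FPKM 12.4%. By edgeR 3398 of 20156 genes had an unadjusted p under 0.05. On Day42, 1 of the 18 was higher and 3 lower than on Day21, where 6.52% and 19.7% of all tested genes were. Against Day0, 2 of the 18 were higher and 6 lower, where 8.82% and 23.4% of all tested genes were. When the third Day42 library was left out, those higher and lower were 2 and 3, 1 and 4, and 3 and 8 in the 3 comparisons, in a fit that called 13.3%, 33.3% and 40.7% of all genes. DNMT1, which copies methylation at replication, was at 235 ± 27.2, 230.1 ± 18.2 and 36.7 ± 14.6 CPM (SD, n = 3) in the order of the days, a fall by 2.65 on the log2 scale in the last step (SE 0.31, adjusted p = 0.00108). UHRF1, which brings DNMT1 to replicated DNA, was at 55.7 ± 17.4 CPM on Day21 and at 0 in all Day42 libraries, at least 382-fold lower against the limit of 12 counts per library (adjusted p = 0.0014). DNMT3B, a de novo methyltransferase, was at 96.2 ± 27.7, 5.43 ± 1.09 and 0.0157 ± 0.0272 CPM, under the counting limit on Day42. ZFP57 was at 0 counts in 8 of 9 libraries, with 20 counts in the third Day0 library.

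The tested genes whose course over the 9 libraries was closest to each member were found by the root mean square difference in log2 CPM, each gene centred on its mean, among genes whose mean FPKM reached 10 on some day (4342 or 4343 candidates). NDN was closest to MAGED2, at 0.25, and ACTR1A, at 0.29. SNRPN was closest to DNAJC2, at 0.30, and HSPA8, at 0.33. MEST was closest to GMPR2, at 0.16, and EIF4H, at 0.17. IGF2 was closest to NEFM, at 0.41, and SMYD2, at 0.43, and PEG10 to PTOV1, at 0.39, and CDK16, at 0.48. DLK1 had no gene so near, with KLHDC8B at 0.82 and F2R at 0.96, and neither did MEG3, with RNA5-8SN1 at 1.23 and 5_8S_rRNA at 1.34. The distances include the third Day42 library, in which DLK1 and MEG3 were at 0, and were not computed without it. The libraries are shared between all genes, so these distances are a description.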

How the data were processed

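RNA was sequenced from 9 libraries, 3 per day. Per the labels' protocols, RNA came from a Trizol extraction and was made into libraries with a low-input kit. Names listed per the submitters' processing notes, with no role, are cutadapt 1.9, FastQC and GRCh38; the aligner, counter, annotation and use of strand were not given in the sources used here. Raw counts per gene were deposited, per the file headers and the whole-number values. The table also holds FPKM, which the authors computed from the counts, gene lengths and a library total not given in the sources used here. Column names were matched to titles, and 0 were unmatched.

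The members, the gene lists and the tests were chosen with earlier results of these data known. Counts were filtered by filterByExpr (20156 of 34961 genes kept), scaled by TMM and fitted with edgeR 4.0.16 (quasi-likelihood, 1 mean per day, all 9 libraries, 6 residual and 2.42 prior degrees of freedom) in R 4.3.3, which shares 1 estimate of spread over the days. Calls needed an adjusted p under 0.05 together with a log2 fold change of 1 or more in either direction. The fit was tested on simulated data. Log2 CPM used a prior count of 2. A fold against a day with 0 counts in all libraries is a lower bound against 12 counts per library, and covers counting error only. Other genes were named by rule: from each list and comparison, up to 4 called genes with the largest change, else the 2 most expressed; neighbours within members' spans; and for likeness the 2 nearest genes. Any gene named outside that rule was chosen after its values were seen, as were IGF1R, IGF2R, INSR and ZFP57 for the gene system they belong to, and the printed windows. Gene overlaps were read from GENCODE release 29. SNURF, SNHG14, SNRPN, IGF2, MEG3, MEST and H19 overlap other models on their own strand. PEG10, NNAT, IGF2, MEST, H19, MEG3 and SNRPN overlap models on the other strand. The levels of all these genes are uncertain.

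The 20 alternatives were median-of-ratios scaling, library totals, DESeq2 1.42.0 (no adjusted p for up to 1468 genes), limma 3.58.1 with voom quality weights, limma on log2(FPKM + 1) and log2(FPKM + 0.1) over genes that reached an FPKM of 1 in 3 libraries, no count filter, a CPM of at least 1 in 3 libraries, the 2 days alone, a block for the replicate number, counts divided by 4, and each library left out. Library totals, and the overlap of libraries and the FPKM order without the third Day42 library, were added after seeing the data. Tables and figures used Python 3.11.15 with matplotlib 3.10.9, numpy 2.4.6 and pandas 2.3.3. FPKM folds are on the log2(value + pseudocount) scale and understate the change of low genes.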

Additional observations from a re-analysis of the deposited data

How the results depend on the processing

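The number of members called from Day0 to Day21, 3, was 6 with voom quality weights, 5 with only the 2 days compared, 1 with the replicate number as a block, and 1 to 4 with 1 library left out. It was 1 without any 1 Day0 or Day21 library, SNRPN each time, and 4 without the third Day42 library. From Day21 to Day42, 0 became 1 under library totals, limma on log2(FPKM + 1) and limma on log2(FPKM + 0.1), SNRPN each time, and 0 to 1 with 1 library left out, where MEG3 was called lower without the second Day42 library. From Day0 to Day42 the count stayed between 2 and 4, and was 2 under the block. The block also lost the Day42 call of IGF2. The replicate numbers did not pair the libraries, with correlations of same-numbered libraries from -0.225 to 0.0266. Over all tested genes, 504 (2.5%) were called from Day0 to Day21 and 109 (0.541%) under the block. With only those days 5009 (25.6%) were called, by DESeq2 2952 (14.6%), and with voom quality weights 6925 (34.4%).

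These signs turned. MEST became 0.0228 from Day0 to Day21 under library totals. From Day21 to Day42 MEST was 0.26 under library totals, 0.00139 with voom, 0.41 and 0.42 in the FPKM fits, and from Day0 to Day42 it was 0.28, 0.34 and 0.35 under library totals and the FPKM fits. From Day21 to Day42, library totals gave 0.0592 for IGF2, 0.55 for MEG3, 0.22 for DLK1 and 0.23 for NDN. In the same step the FPKM fits gave 0.0543 and 0.0289 for IGF2 and 0.31 and 0.31 for NDN. With 1 library left out in that step, IGF2 ranged from -1.13 to 0.0118 (turned without replicate 2 of Day42), DLK1 from -0.88 to 0.26 (without replicate 3 of Day42), MEST from -0.35 to 0.0203 (without replicate 1 of Day21) and MEG3 from -8.24 to 0.51, with 0.0462, 0.0555 and 0.50 in between (without replicates 2 and 3 of Day21 and 1 and 3 of Day42). MEG3 from Day0 to Day42 was -0.22 with voom and -5.04 to 3.70 with 1 library left out, the lowest without the second Day42 library, which holds all its Day42 counts. Library totals shift the median gene by 0.11, 0.52 and 0.62 in the 3 comparisons against TMM, so values of that size between days depend on the scaling. H19, NNAT and MEG3 are limited by counts near 12 per library. The cause of the other changes was not tested.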

Other observations

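PLAGL1, a paternally expressed zinc-finger transcription factor, was chosen after its values were seen. It had 8, 14 and 36 counts in the Day0, 1434, 795 and 866 in the Day21, and 497, 187 and 0 in the Day42 libraries. The Day21 libraries lay above all others. Its change from Day0 to Day21 was 5.63 ± 1.93 (log2 fold change, SE, edgeR adjusted p = 0.166) with all libraries, and 5.61 (adjusted p = 0.00264) without the third Day42 library. It passed the test in 6 of 20 alternatives, and the range of adjusted p over all 20 was 2.86e-05 to 0.437.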
